A study of Mustela putorius furo and Mus musculus with 4 samples.

Results

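The transforming growth factor beta (TGF-beta) system was examined in cultured ferret and mouse astrocytes through 10 genes. These were the 3 ligands Tgfb1, Tgfb2 and Tgfb3, the 3 receptors Tgfbr1, Tgfbr2 and Tgfbr3, the latency proteins Ltbp1 and Ltbp2, the signal mediator Smad3 and the target gene Tgfbi. They were chosen by symbol, matched without regard to case, and all 10 were found among the 13373 symbols shared by the ferret and the mouse files, each with 1 row per species. All 10 also passed the limit on low values, which kept the 10204 genes whose mean FPKM reached 1 in either species or both. Tgfbr3 passed only through its mouse level, so a difference was built into its passing.

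The study asked how the transcriptome of ferret astrocytes compares with that of mouse astrocytes. It comprised 2 libraries of primary astrocytes from the cerebral cortex of ferrets (Mustela putorius furo) at postnatal day 1, and 2 from ICR mice at postnatal day 1 to 3. No transgene or drug was used, and both species were grown in 10% fetal bovine serum as mixed glia for 14 days, shaken, replated and moved to serum-free medium with heparin-binding EGF-like growth factor before RNA was taken. A mouse flask pooled several pups whereas a ferret pup filled several flasks, and separate cultures for the duplicates are not stated in the sources used here, so p-values may measure technical spread only.

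TGF-beta is secreted as a dimer held inactive by its own propeptide. Latent TGF-beta binding proteins tether this complex to the extracellular matrix, and integrins or thrombospondin release the active ligand. The active ligand binds the type II receptor TGFBR2, which phosphorylates the type I receptor TGFBR1, and TGFBR1 in turn phosphorylates SMAD2 and SMAD3, which enter the nucleus with SMAD4. In the brain, TGF-beta is known as a signal between astrocytes, microglia and neurons and as an inducer of matrix genes after injury.

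The 3 ligands are encoded by separate genes with similar coding ends, which is why their sequences bear on whether a read can be assigned to one of them. The last 90 coding bases of each mouse gene, with the stop codon, are shown 5′ to 3′ from the GENCODE transcripts on GRCm38. Capitals mark the 58 positions at which all 3 genes have the same base.
Tgfb1: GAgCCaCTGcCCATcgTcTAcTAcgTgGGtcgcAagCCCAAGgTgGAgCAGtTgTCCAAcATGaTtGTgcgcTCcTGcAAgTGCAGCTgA
Tgfb2: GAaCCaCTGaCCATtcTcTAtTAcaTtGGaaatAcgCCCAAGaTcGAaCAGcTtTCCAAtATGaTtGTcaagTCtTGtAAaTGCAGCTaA
Tgfb3: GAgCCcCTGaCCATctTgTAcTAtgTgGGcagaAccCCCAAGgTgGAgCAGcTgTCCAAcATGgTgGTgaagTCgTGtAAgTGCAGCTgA
Over the last 339 coding bases, which encode the mature ligand and the stop codon, identity was 68.7% between Tgfb1 and Tgfb2, 73.7% between Tgfb1 and Tgfb3 and 70.8% between Tgfb2 and Tgfb3. The longest run of identical bases shared by the coding sequences of Tgfb3 and either other ligand was 15 bases. Among the coding sequences of all pairs of the 10 mouse genes the longest shared run was 24 bases, between Ltbp1 and Ltbp2. Untranslated parts of the transcripts were not compared. No ferret sequence was used here.

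Expression was measured as FPKM, a level corrected for transcript length and for the number of mapped fragments, which allows levels of different genes to be compared within a library. Library depth cannot be read from such values, and steps between the lowest values gave only a depth ratio of replicate 1 to replicate 2 of 1.17 in ferret and 0.83 in mouse astrocytes. FPKM of the shared symbols summed to between 227391 and 236543 in ferret and between 300465 and 308121 in mouse libraries. Over all rows the sums were 238385 and 247918 in ferret against 525962 and 535899 in mouse libraries. More of the mouse total therefore lay outside the shared symbols. Duplicates differed by a median of 0.081 (ferret) and 0.065 (mouse) in absolute log2 terms. Gfap, the defining marker of the labelled cell type, lay between 1428.6 and 1545.6 FPKM in all 4 libraries, and the 8 astrocyte markers summed to 3553.7 and 3654.2 FPKM in ferret against 3057.2 and 3309.3 FPKM in mouse astrocytes. Of these 8 markers, Aqp4 (-3.09), Aldh1l1 (-2.95), Gja1 (-1.34) and Slc1a3 (-1.16) were called lower in ferret astrocytes and S100b (2.01) was called higher, with log2 differences in parentheses. The species were quantified on their own gene models, so species, gene model and culture cannot be told apart in any value below.

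Of the 10 genes, Tgfb2, Tgfbr3 and Ltbp2 were lower in ferret astrocytes and none was higher, where a call needs a limma adjusted p under 0.05 and an absolute difference above 1 on the log2(FPKM + 1) scale. This is 3 of 10 genes called lower, while 30.1% of all genes tested were called lower and 13.1% were called higher. The share of members called lower was therefore that of the genes at large. By the adjusted p alone, 6 of the 10 were lower and 1 was higher, as by an unadjusted p under 0.05, against 56.2% and 32.4% of all genes tested. The 2 ferret libraries lay wholly above or below the 2 mouse libraries for 8 of the 10 genes, against 94.1% of all genes. The median log2 difference was -0.57 over the 10 genes and -0.35 over all genes tested. An exact permutation test of 2 against 2 libraries cannot go below a two-sided p of 0.33, so no single gene can be called by it.

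**Figure D1:**
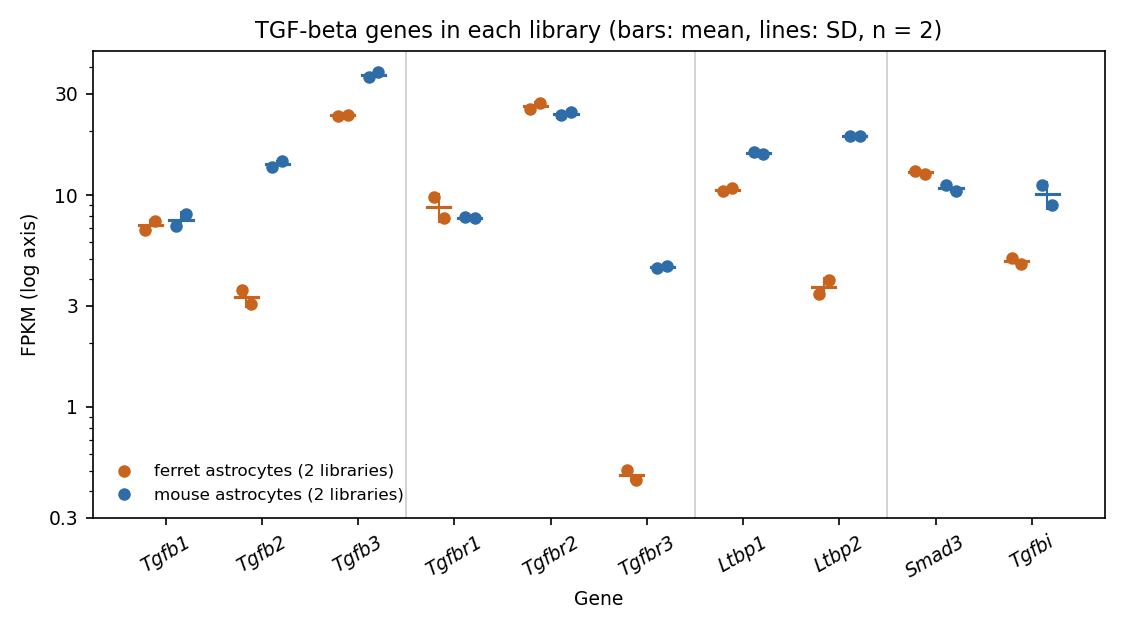
FPKM (log axis) of each gene in the 2 ferret and the 2 mouse libraries, with horizontal bars for the means and vertical lines for the SD (n = 2). Tgfb2, Tgfbr3 and Ltbp2 stand far apart between the species, with Tgfbr3 below 1 FPKM in both ferret libraries, whereas the points of Tgfb1 overlap between the species.

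**Figure D2:**
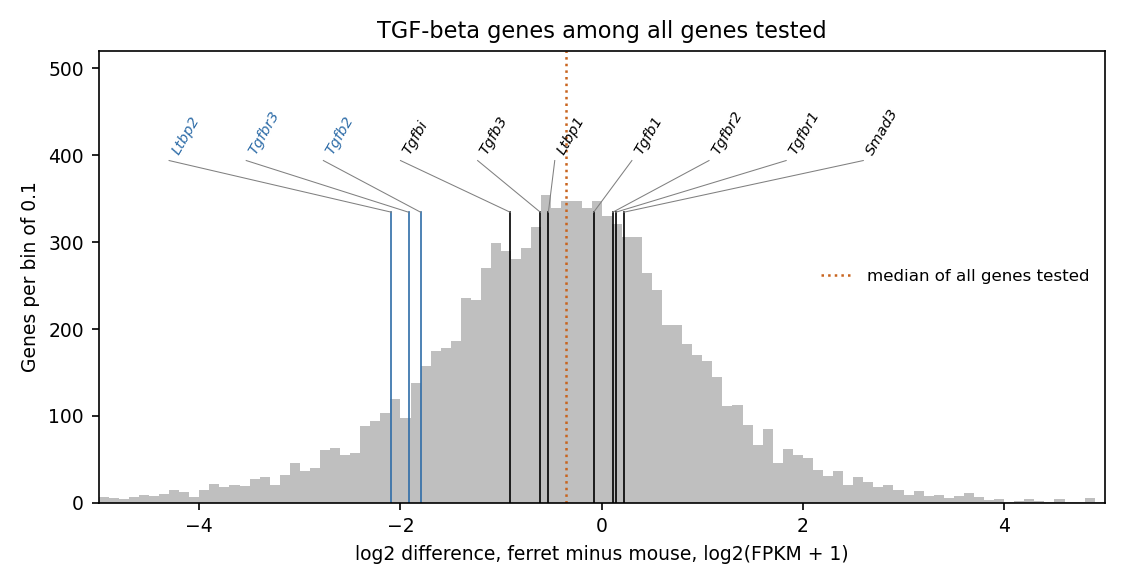
Number of genes per bin of 0.1 in the log2 difference between ferret and mouse astrocytes, with each of the 10 genes marked by a vertical line (blue for those called lower). Tgfb2, Tgfbr3 and Ltbp2 lie in the lower flank and the other 7 genes lie in the body of the distribution, and 65 genes with an absolute difference above 5 are outside the axis.

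Among the ligands, Tgfb2 set the species apart, Tgfb3 was the most abundant form in both and Tgfb1 was not separated. TGFB2 is the form best known from development of the heart, eye and brain. Tgfb2 had 3.58 and 3.05 FPKM in ferret against 13.6 and 14.4 FPKM in mouse astrocytes. Both ferret values lay far below both mouse values. The mouse mean (14.0 ± 0.582 FPKM, SD, n = 2) was 4.22 times the ferret mean (3.32 ± 0.376 FPKM, SD, n = 2), with a log2 difference of -1.80 (standard error 0.083, limma adjusted p = 1.66e-08). Relative to the median gene the difference was -1.45, and 13.1% of all genes tested had a lower value. Mouse Tgfb2 lies on chromosome 1 (GRCm38, 186622792 to 186705989, minus strand). The antisense gene Gm29491 overlaps 2 of its annotated exon intervals, counted over all transcripts, and since the strand setting of the quantification is not given in the sources used here, reads of this pair may not be separated.

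Tgfb3 had 23.7 and 23.8 FPKM in ferret against 35.9 and 37.9 FPKM in mouse astrocytes. The ferret libraries were both lower, and the log2 difference of -0.61 (standard error 0.060, limma adjusted p = 5.35e-06) was under the size needed for a call. Relative to the median of all genes it was -0.26. Mouse Tgfb3 lies on chromosome 12 (86056745 to 86079041, minus strand). The opposite-strand genes Ttll5 and Gm37804 each overlap 2 of its exons, and Gm48008 overlaps 1. As for Tgfb2, reads of such pairs may not be separated.

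Tgfb1, the form best known from immune regulation and wound repair, had 6.82 and 7.55 FPKM in ferret against 7.16 and 8.17 FPKM in mouse astrocytes. The values of the species interleaved. The log2 difference was -0.08, with a 95% confidence interval from -0.27 to 0.11 (limma adjusted p = 0.383). With FPKM rescaled so that all 4 libraries have the same sum over the shared symbols, the sign turned and Tgfb1 was higher in ferret astrocytes by 0.26 (limma adjusted p = 0.0128). The gene lies on mouse chromosome 7 (25687002 to 25705077, plus strand).

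The signalling receptors Tgfbr1 and Tgfbr2 were not separated between the species by the test, whereas the co-receptor Tgfbr3 was below 1 FPKM in ferret astrocytes. TGFBR3, or betaglycan, is a membrane proteoglycan that presents ligand to TGFBR2 and is known to matter most for TGFB2, which binds TGFBR2 weakly on its own. Tgfbr3 had 0.502 and 0.453 FPKM in ferret against 4.52 and 4.64 FPKM in mouse astrocytes. No ferret value came near a mouse value. The mouse mean was 9.60 times the ferret mean, with a log2 difference of -1.92 (standard error 0.076, limma adjusted p = 5.85e-09). At levels below 1 the added pseudocount of 1 compresses the difference, and with a pseudocount of 0.1 it was -3.02. The mouse gene lies on chromosome 5 (107106570 to 107289629, minus strand), where the same-strand gene Gm43422 overlaps 2 of its annotated exon intervals, counted over all transcripts.

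Tgfbr2, the type II receptor kinase, had 25.4 and 27.3 FPKM in ferret against 23.8 and 24.7 FPKM in mouse astrocytes. The ferret values were the higher ones without overlap, but the log2 difference of 0.11 (95% confidence interval -0.03 to 0.26, limma adjusted p = 0.119) did not pass the test. Tgfbr1, the type I receptor kinase, had 9.79 and 7.80 FPKM in ferret against 7.88 and 7.77 FPKM in mouse astrocytes. Ferret replicate 2 lay between the mouse values, and the log2 difference was 0.14 (95% confidence interval -0.07 to 0.36, limma adjusted p = 0.184). Without ferret replicate 1 it was -0.0034. After rescaling to equal sums, Tgfbr1 and Tgfbr2 were each higher in ferret astrocytes by 0.49 (limma adjusted p = 0.00541 and 6.05e-05). Mouse Tgfbr1 lies on chromosome 4 (47353222 to 47414931, plus strand) and Tgfbr2 on chromosome 9 (116084293 to 116175360, minus strand).

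Of the latency proteins, Ltbp2 was called lower in ferret astrocytes and Ltbp1 was not. LTBP1 binds the small latent complex covalently and directs it to the matrix. LTBP2, although of the same family, does not bind latent TGF-beta and is known as a microfibril protein. Ltbp2 had 3.41 and 3.96 FPKM in ferret against 18.9 and 19.0 FPKM in mouse astrocytes. All mouse values lay well above all ferret values. The mouse mean (19.0 ± 0.0404 FPKM, SD, n = 2) was 5.15 times the ferret mean (3.69 ± 0.394 FPKM, SD, n = 2), with a log2 difference of -2.09 (standard error 0.078, limma adjusted p = 3.93e-09), the largest of the 10 genes on this scale. Of all genes tested, 9.62% had a lower difference. Ltbp1 had 10.5 and 10.8 FPKM in ferret against 16.0 and 15.6 FPKM in mouse astrocytes. It was the lower in both ferret libraries, by a log2 difference of -0.53 (standard error 0.065, limma adjusted p = 2.65e-05), which did not reach the size of a call and lay -0.18 from the median gene. After quantile normalization Ltbp1 was at -0.12 and no longer passed the test (limma adjusted p = 0.0773). Mouse Ltbp1 lies on chromosome 17 (75005568 to 75392512, plus strand), and Ltbp2 on chromosome 12 (84783212 to 84876532, minus strand). The antisense gene D030025P21Rik overlaps 4 annotated exon intervals of Ltbp2, counted over all its transcripts.

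Smad3 and Tgfbi, a mediator and a secreted matrix protein induced by TGF-beta, had differences of opposite sign. Smad3 had 13.0 and 12.5 FPKM in ferret against 11.2 and 10.4 FPKM in mouse astrocytes. The ferret values were higher without overlap, by a log2 difference of 0.22 (standard error 0.069, limma adjusted p = 0.0123), a ratio of 1.18 between the means. This passed the test by p alone but under the size of a call, and it was lost without ferret replicate 1 (adjusted p = 0.0667, limma) or without mouse replicate 2 (adjusted p = 0.121, limma). Tgfbi had 5.04 and 4.72 FPKM in ferret against 11.2 and 9.02 FPKM in mouse astrocytes. The mouse duplicates were the more spread of the pairs, yet both lay above the ferret values, with a log2 difference of -0.91 (standard error 0.099, limma adjusted p = 1.07e-05). On the deposited scale this was just short of the size of a call. The difference of Tgfbi was -1.06 without mouse replicate 2 and -0.77 without mouse replicate 1. After rescaling it was -0.57 and after quantile normalization -0.5. Mouse Smad3 lies on chromosome 9 (63646767 to 63757994, minus strand) and Tgfbi on chromosome 13 (56609523 to 56639562, plus strand).

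**Figure D3:**
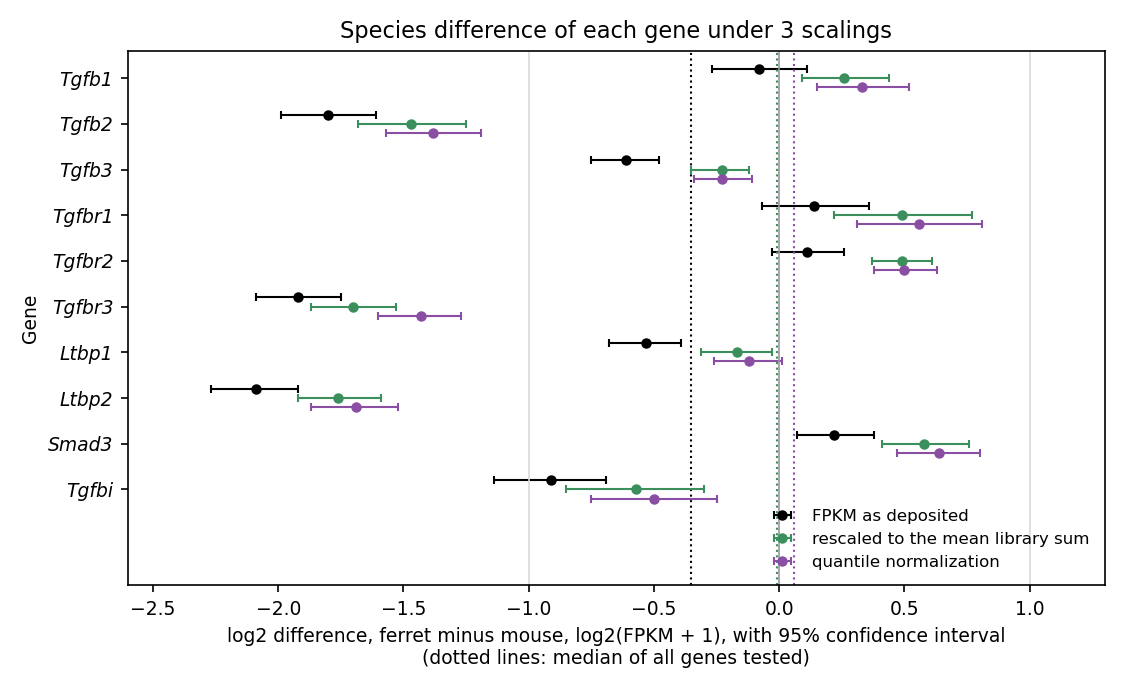
Log2 difference (ferret minus mouse) of each gene with its 95% confidence interval, for FPKM as deposited, FPKM rescaled to the mean library sum and quantile normalized values. Dotted lines give the median of all genes tested (-0.35, -0.01 and 0.06), and Tgfb2, Tgfbr3 and Ltbp2 stay below -1 under all 3 scalings while Tgfb1 changes sign.

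The scaling between species shifted all 10 genes together. The median of all genes tested moved from -0.35 to -0.01 after rescaling to the mean library sum and to 0.06 after quantile normalization. After rescaling, the same 3 genes, Tgfb2 (-1.47), Tgfbr3 (-1.70) and Ltbp2 (-1.76), were called lower, and 0 of the 10 were called higher, against 21.7% and 19.1% of all genes. By the adjusted p alone, 4 were then higher (Tgfb1, Tgfbr1, Tgfbr2 and Smad3) and 6 were lower, against 43.8% and 44.5% of all genes.

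Shares within a library do not depend on the scaling between libraries, although they still rest on the gene models. Of the summed ligand FPKM, Tgfb2 made up 10.5% and 8.87% in ferret against 24.0% and 23.8% in mouse astrocytes. Tgfb1 made up 20.0% and 21.9% in ferret against 12.6% and 13.5% in mouse astrocytes, so that the order of Tgfb1 and Tgfb2 was opposite in the 2 species. Tgfb3 took 69.5% and 69.2% in ferret against 63.3% and 62.7% in mouse astrocytes. On the deposited scale the ligand sum was lower in ferret astrocytes, at 34.1 and 34.4 FPKM against 56.6 and 60.5 FPKM.

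On the deposited scale the receptor sum differed little, at 35.7 and 35.5 FPKM in ferret against 36.2 and 37.1 FPKM in mouse astrocytes. Unlike the shares, such a sum depends on the scaling between libraries. After rescaling, Tgfbr1 and Tgfbr2 were each higher in ferret astrocytes by 0.49, while Tgfbr3 was at -1.7. Tgfbr3 made up 1.41% and 1.27% of the receptor sum in the ferret and 12.5% in each of the mouse libraries. Tgfbr2 made up 71.1% and 76.8% in ferret against 65.8% and 66.5% in mouse astrocytes. Among latent TGF-beta binding proteins, Ltbp3 and Ltbp4 of the pathway list were added for the share. Ltbp2 made up 4.02% and 4.34% of the 4 genes in ferret against 17.1% and 17.8% in mouse astrocytes, while Ltbp3 was the most abundant in all 4 libraries (75.2% and 74.9%, against 62.3% and 61.3%). In none of these shares did the 2 species overlap. For Tgfbr1, at 27.5% and 22.0% in ferret against 21.7% and 21.0% in mouse astrocytes, the margin was smaller than the gap between the ferret duplicates.

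**Figure D4:**
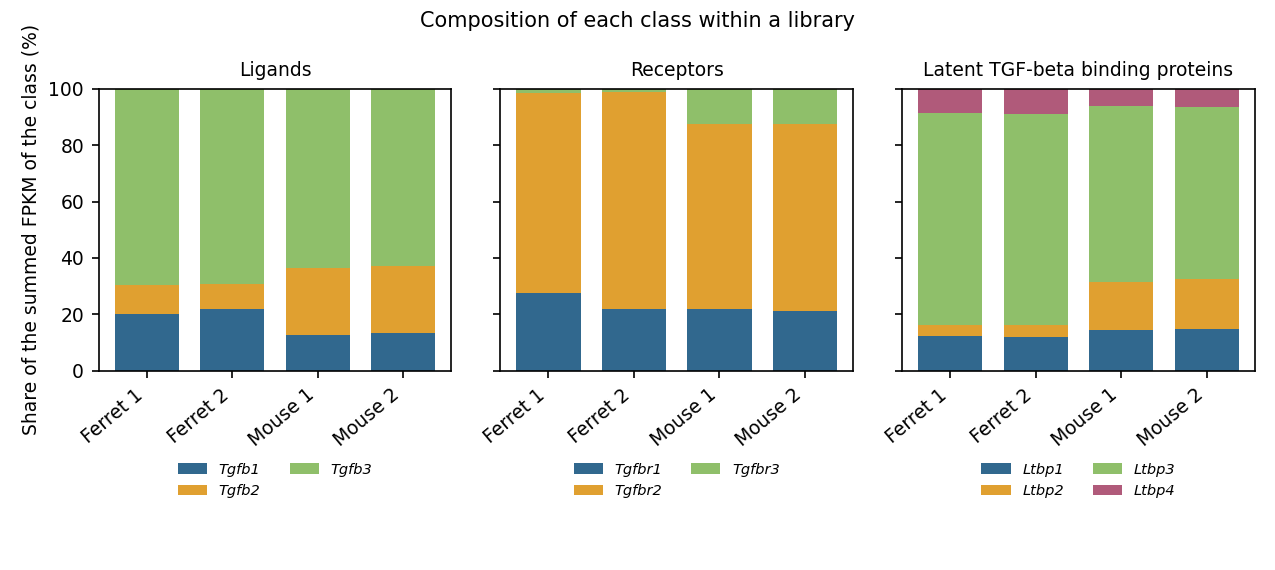
Share of each gene in the summed FPKM of its class (%), for ligands, receptors and the 4 latent TGF-beta binding proteins, with 1 stacked bar per library. The bands of Tgfb2, Tgfbr3 and Ltbp2 are narrow in the 2 ferret libraries and wide in the 2 mouse libraries, and the duplicates of a species look alike.

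The order of the levels differed between the species. In ferret astrocytes Tgfbr2 (26.3 FPKM) ranked first, followed by Tgfb3, Smad3, Ltbp1, Tgfbr1, Tgfb1, Tgfbi, Ltbp2, Tgfb2 and Tgfbr3 (0.477 FPKM). The ferret values of Ltbp2 and Tgfb2 overlapped, whereas the other neighbours were separate in both libraries. In mouse astrocytes Tgfb3 (36.9 FPKM) ranked first, followed by Tgfbr2, Ltbp2, Ltbp1, Tgfb2, Smad3, Tgfbi, Tgfbr1, Tgfb1 and Tgfbr3 (4.58 FPKM). Here the values of Smad3 and Tgfbi overlapped, as did those of Tgfbr1 and Tgfb1. Tgfb3 exceeded 79.2% of all genes tested in ferret and 82.6% in mouse astrocytes, and Tgfbr3 exceeded 7.01% and 25.9%.

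A list of 49 other genes of the pathway was described beside the 10 genes. Of these, 47 had a shared symbol and 46 passed the limit on low values. Lrrc32, Nrros, Eng, Acvrl1 and Ldlrad4 passed it only through their mouse level and the target gene Junb, listed at 0 in both mouse libraries, only through its ferret level. For these 6 genes a difference was built into their being tested, and Junb is among those called higher. Lower in ferret astrocytes were 23 (50.0%) and higher were 3 (6.52%), against 30.1% and 13.1% of all genes tested. The median log2 difference was -0.98 on the deposited scale and -0.61 after rescaling, where 19 were called lower and 5 higher, against 21.7% and 19.1% of all genes.

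In the group for latency and activation, 5 of 10 tested genes were lower and 0 were higher, against 30.1% and 13.1% of all genes tested, with a median of -0.78. Both anchors that hold latent TGF-beta on cell surfaces stood far lower in ferret astrocytes, and both passed the limit on low values only through their mouse level. Lrrc32, which encodes GARP, had 0.137 and 0.117 FPKM in ferret against 8.36 and 9.89 FPKM in mouse astrocytes (log2 difference -3.16, limma adjusted p = 6.57e-10). Nrros, the anchor known from microglia, had 0.0423 and 0.0124 FPKM in ferret against 6.27 and 6.54 FPKM in mouse astrocytes (log2 difference -2.85, limma adjusted p = 4.57e-10). Emilin1, which keeps the TGF-beta precursor from being processed, and Fbn1, the microfibril protein to which LTBPs attach, were lower by log2 differences of -2.75 and -1.52. Thbs1, encoding the activator thrombospondin-1, had the highest mean of the group, with 64.9 and 63.2 FPKM in ferret against 171.9 and 167.2 FPKM in mouse astrocytes (log2 difference -1.39). The processing protease gene Furin (-0.11) and Ltbp3 (-0.03) did not pass the test, and Itgav, chosen after its values were seen, was higher in ferret astrocytes by 0.84, short of a call. Itgb6 stayed under the limit on low values and has an FPKM of 0 in the ferret duplicates.

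All 5 measured receptors and co-receptors of the list were called lower in ferret astrocytes, against 30.1% of all genes tested, with a median of -2.07. Of these 5, Eng and Acvrl1 passed the limit on low values only through their mouse level, so a difference was built into their being tested. Cd109, which encodes a membrane-anchored antagonist of the receptors, had 21.4 and 20.8 FPKM in ferret against 117.1 and 121.6 FPKM in mouse astrocytes (log2 difference -2.44, limma adjusted p = 2.11e-10). The endothelial type I receptor gene Acvrl1 had 3.93 and 3.59 FPKM in the mouse libraries, stood at 0.044 FPKM in ferret replicate 1 and is listed at 0 in ferret replicate 2. Eng, encoding the co-receptor endoglin, was lower by -2.07, Vasn, encoding the TGF-beta trap vasorin, by -1.58, and the pseudoreceptor gene Bambi by -1.43.

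Of 15 intracellular genes tested, 6 were lower and 0 were higher, against 30.1% and 13.1% of all genes tested, with a median of -0.47. The feedback inhibitor Smad7 had 1.23 and 1.48 FPKM in ferret against 5.97 and 5.38 FPKM in mouse astrocytes (log2 difference -1.50, limma adjusted p = 9.15e-08). The repressors Skil (-1.39), Ski (-1.32) and Tgif1 (-1.22) were lower as well. After rescaling, 2 of the 15 were called lower and 1 higher, against 21.7% and 19.1% of all genes, so the count in this group depended on the scaling. Strap, which encodes a receptor-binding inhibitor, had the highest mean of the group and was higher in ferret astrocytes by 0.41, short of a call. The partners of Smad3 did not reach a call, with -0.40 for Smad2 and -0.47 for Smad4. Both were near the median of all genes tested, which was -0.35 on this scale.

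Genes known to be induced by TGF-beta differed in both directions, with a median of -0.91. Of the 16, 7 were lower and 3 higher, against 30.1% and 13.1% of all genes tested. Acta2, encoding smooth muscle actin, had 22.9 and 20.4 FPKM in ferret against 220.9 and 238.3 FPKM in mouse astrocytes (log2 difference -3.35, limma adjusted p = 1.16e-10). Lox, the collagen cross-linking enzyme (-3.29), Fn1, fibronectin (-2.72), and the actin-binding protein gene Tagln (-2.66), which had the highest mean of the group, were lower too. Postn, encoding the matrix protein periostin, was higher in ferret astrocytes by 2.30. Junb, an immediate early transcription factor gene, had 18.2 and 19.2 FPKM in ferret astrocytes but is listed at 0 for both mouse libraries, which can be a failed estimate, so no fold is given. It is still counted among the 3 higher genes, and it passed the limit on low values only through its ferret level. Postn was named after its values were seen.

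**Figure D5:**
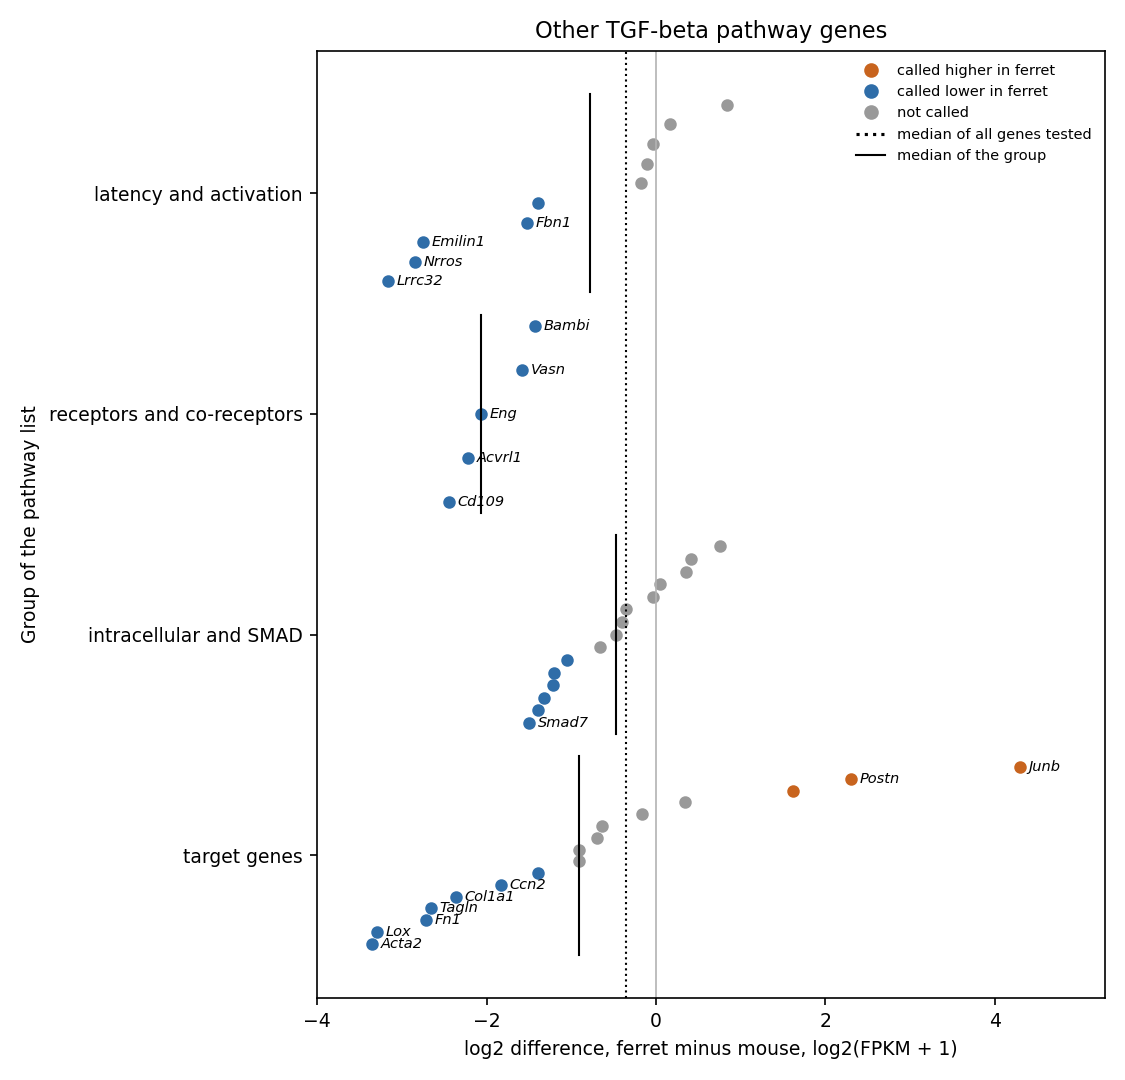
Log2 difference (ferret minus mouse) of the 46 tested genes of the pathway list in 4 groups, with orange for genes called higher, blue for genes called lower and gray for the rest. The receptor and co-receptor genes all lie to the left of the median of all genes tested (-0.35), whereas the target genes spread to both sides, and Junb at the far right is listed at 0 in both mouse libraries.

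Markers of other cell types moved with the species. The 9 measured microglial markers passed the limit on low values only through their mouse level, so that their lower ferret values were partly fixed by it, and they summed to 2.89 and 1.90 FPKM in ferret against 391.5 and 375.4 FPKM in mouse astrocytes. Of the defining markers, Cx3cr1 is listed at 0 for the ferret duplicates and had 15.0 and 16.5 FPKM in mouse astrocytes. Aif1 had 0.0495 and 0.0465 FPKM in ferret against 12.6 and 10.6 FPKM in mouse astrocytes. The 8 measured markers of meningeal fibroblasts summed to 6.48 and 5.22 FPKM in ferret against 1200.2 and 1196.9 FPKM in mouse astrocytes. The 7 that were tested were called lower, against 30.1% of all genes tested, 5 of them having passed only through their mouse level. The defining marker Dcn had 1.92 and 1.43 FPKM in ferret against 40.7 and 42.0 FPKM in mouse astrocytes. Lum, the other one, had 0.85 and 0.67 FPKM against 7.68 and 8.31 FPKM. Mural and endothelial markers summed to between 17.1 and 17.6 FPKM in the ferret and between 48.6 and 50.0 FPKM in the mouse libraries. Of the 4 tested, 1 was higher and 2 were lower, against 13.1% and 30.1% of all genes tested. Cdh5 passed the limit on low values only through its mouse level and Kcnj8 only through its ferret level. Among the endothelial markers, Pecam1 was at or below 0.0407 FPKM in all 4 libraries, whereas Cdh5 is listed at 0 in the ferret duplicates and had 22.0 and 22.5 FPKM in mouse astrocytes. Among the mural markers, Pdgfrb had 4.57 and 4.38 FPKM in ferret against 24.5 and 22.7 FPKM in mouse astrocytes, and Kcnj8 was the one called higher in ferret astrocytes. Rgs5 stayed under the limit on low values, listed at 0 in the ferret duplicates and at 0.601 and 0.576 FPKM in mouse astrocytes. The sum of the oligodendrocyte lineage markers went the other way, from 84.9 to 91.4 FPKM in the ferret and from 18.3 to 19.8 FPKM in the mouse libraries. Of 5 tested genes 3 were higher, against 13.1% of all genes tested. Olig2 of this list was lower in ferret astrocytes without reaching a call. It had 4.92 and 5.18 FPKM in ferret against 9.62 and 9.8 FPKM in mouse astrocytes (log2 difference -0.82). Sox10 and Mag passed the limit on low values only through their ferret level. The defining marker Mag (1.0 and 1.11 FPKM in ferret, 0.364 and 0.184 in mouse astrocytes) was not called. Mog, the other one, stayed under the limit, at or below 0.381 FPKM in all 4 libraries. The 5 measured neuronal markers summed to 7.80 and 7.84 FPKM in ferret against 2.06 and 2.31 FPKM in mouse astrocytes. The 2 that were tested, Syt1 and Gad1, were called higher, against 13.1% of all genes tested. Gad1 passed the limit on low values only through its ferret level. The defining markers Rbfox3 and Snap25 stayed under the limit, at or below 0.795 FPKM in all 4 libraries. Syt1, at 5.11 and 4.94 FPKM in ferret astrocytes, made up most of the neuronal sum. Rbfox3 and Slc17a7, both at or below 0.187 FPKM in all libraries, were lower in ferret astrocytes. The part of these other cell types in the differences of Tgfb2, Tgfbr3, Ltbp2 and the pathway list was not tested, and in RNA of whole cultures fewer cells of a type and less RNA per cell cannot be told apart.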

How the data were processed

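RNA of 2 ferret and 2 mouse astrocyte libraries was sequenced after polyA selection with a stranded kit. Alignment to the Ensembl genome of the species was done by the authors with STAR 2.7.0f, and they deposited FPKM per gene from Cufflinks 2.2.1, without filtering or scaling between species. The submitters' notes also name bcl2fastq 2.17, and give GRCm38 as the build of all 4 libraries. For ferret the study's methods name a ferret genome instead, and the ferret files list mostly upper case symbols, in another order than the mouse files.

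Symbols were matched in upper case, with the highest mean for a symbol with several rows. Species were compared on log2(FPKM + 1) with limma 3.58.1 (R 4.3.3, moderated variances with an intensity trend), Benjamini-Hochberg adjusted over the 10204 genes tested, and the fit was tested on simulated data. The added 1 shrinks differences between low values. Read counts listed in the study's supplement were not used here, so no counting interval is given, and the precision rests on duplicates.

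The members and lists were chosen with earlier results of these data known. Named were all members, and per group of the pathway list up to 4 called genes with the largest absolute difference and the gene with the highest mean, and the defining markers of each cell type. Named outside this rule, after their values were seen, were Bambi, Furin, Itgav, Itgb6, Ltbp3, Ltbp4, Postn, Smad2, Smad4, Zfyve9, Ldlrad4 and the other genes of the cell type lists. A gene of the list is counted but not reported by name here. Alternatives were a pseudocount of 0.1, no filter, rescaling, quantile normalization, a replicate block, summed rows and each library left out. Mouse gene models are those of GENCODE on GRCm38, in a release other than the authors'. Exon intervals touched by another gene were counted over all transcripts, so versions of the same exon can count separately. Ferret gene lengths were not used here.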

Additional observations from a re-analysis of the deposited data

How the results depend on the processing

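Tgfb2, Tgfbr3 and Ltbp2 were called lower in ferret astrocytes under all 10 alternatives, with log2 differences from -2.05 to -1.38, from -3.02 to -1.43 and from -2.34 to -1.69. Tgfbi was called as well with a pseudocount of 0.1 (-1.03) and without mouse replicate 2 (-1.06). Over all 10 alternatives the difference of Tgfbi ranged from -1.06 to -0.5. Tgfb1 changed sign after rescaling to the mean library sum (0.26) and after quantile normalization (0.33), 2 steps that shift all genes, and without mouse replicate 2. With each library left out in turn, Tgfb1 ranged from -0.16 to 0.0035 and Tgfbr1 from -0.0034, without ferret replicate 1, to 0.29. The cause was not tested. Of 100 values of single members under alternatives, 94 kept their direction and their side of the call. The settings with no filter, a replicate block or summed rows leave the log2 difference of a member unchanged. Part of this count, and of the 10 alternatives above, was therefore fixed in advance.

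After quantile normalization 2107 genes were called higher and 2040 lower, against 1336 and 3069, and after rescaling 1954 and 2215. Of the pathway list, 5 genes were called higher after either step, against 3, the added ones being Itgav and Zfyve9. With a library left out, the lone duplicate was assumed to vary like the other pair. The replicate numbers do not pair the samples, since same-numbered libraries of the species deviated with a correlation of 0.01, and with the replicate block 1342 genes were higher and 3072 lower, with 3 members lower and 0 higher. The counting error of low FPKM values, such as those of Tgfbr3 in ferret astrocytes, was not estimated here.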
